A study of Mus musculus with 28 samples.

Results

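The enzymes, regulators and exporters of cholesterol and fatty acid synthesis were followed as a set of 31 genes through the activation of mouse T cells. The genes were listed by name, probes were matched to them by accession, symbol or synonym, and the brightest probe of a gene was used. A gene was kept if its probe was well above background on at least 3 of 28 arrays, and all 31 were kept, out of 19490 genes tested in all. The set holds 7 genes of the mevalonate steps, 10 of the squalene and sterol steps, 6 regulators, 6 genes of fatty acid synthesis and 2 exporters.

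Cholesterol is built from acetyl-CoA through mevalonate, isoprenoid units, squalene and lanosterol, and fatty acids are built from the same acetyl-CoA through malonyl-CoA. Both branches are switched on by the sterol regulatory element binding proteins (SREBPs), which the escort protein SCAP carries out of the endoplasmic reticulum when sterols run low and which INSIG proteins hold back when sterols are plentiful. Liver X receptors act in the opposite sense, by switching on exporters such as ABCA1 and ABCG1 when oxysterols build up. T cells that leave rest to divide need new membrane, and this pathway is known to be engaged by the antigen receptor.

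The cells came from BALB/c mice of 4 months (young) or 20 months (old) and were sorted as CD4 or CD8 T cells. They were taken unstimulated (0 h) or after 4, 12, 24 or 72 h on plates coated with antibodies to CD3 and CD28, which engage the antigen receptor and its costimulator. That makes 20 groups, with 3 arrays for each of the 4 groups at 0 h and 1 array for each of the 16 stimulated groups. The RNA of a group was pooled from 4 independent sortings, and the arrays repeated at 0 h are replicates of such pools, so the spread between them may be technical. The labels disagree on the gate, since titles and the growth protocol give cells low in CD62L and high in CD44, whereas sample descriptions and the study design give naive cells with the opposite pattern.

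The promoters of 24 of the 31 genes were found in RefSeq's table of the GRCm38.p6 assembly, and those of 5 genes with different courses after stimulation are shown because the genes of the set moved largely together. Each is the 250 bases before the start of the gene, written 5′ to 3′ on the gene's own strand. Capitals mark the sterol regulatory element (TCACNCCAC), the CCAAT box (CCAAT) that the SREBP partner NF-Y binds, and the GC box (GGGCGG) that Sp1 binds, each read on both strands.
Hmgcs1 (HMG-CoA synthase; chr13:119690101-119690350, + strand): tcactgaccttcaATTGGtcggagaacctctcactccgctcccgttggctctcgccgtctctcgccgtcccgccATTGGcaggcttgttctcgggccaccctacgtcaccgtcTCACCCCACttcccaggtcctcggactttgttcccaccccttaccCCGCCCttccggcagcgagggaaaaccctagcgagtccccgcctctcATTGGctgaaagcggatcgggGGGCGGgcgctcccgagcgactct
Idi1 (isopentenyl diphosphate isomerase; chr13:8885356-8885605, + strand): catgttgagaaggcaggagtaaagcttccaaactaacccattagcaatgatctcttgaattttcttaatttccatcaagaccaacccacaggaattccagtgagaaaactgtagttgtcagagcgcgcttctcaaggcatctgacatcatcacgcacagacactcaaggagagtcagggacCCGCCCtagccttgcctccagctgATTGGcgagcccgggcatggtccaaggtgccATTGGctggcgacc
Cyp51 (lanosterol demethylase; chr5:4104698-4104947, - strand): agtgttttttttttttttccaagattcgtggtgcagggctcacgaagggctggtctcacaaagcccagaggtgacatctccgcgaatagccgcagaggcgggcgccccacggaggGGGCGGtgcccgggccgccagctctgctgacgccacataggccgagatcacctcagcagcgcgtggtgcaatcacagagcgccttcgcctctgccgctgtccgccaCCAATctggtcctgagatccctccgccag
Insig1 (retention protein of the SREBP system; chr5:28071162-28071411, + strand): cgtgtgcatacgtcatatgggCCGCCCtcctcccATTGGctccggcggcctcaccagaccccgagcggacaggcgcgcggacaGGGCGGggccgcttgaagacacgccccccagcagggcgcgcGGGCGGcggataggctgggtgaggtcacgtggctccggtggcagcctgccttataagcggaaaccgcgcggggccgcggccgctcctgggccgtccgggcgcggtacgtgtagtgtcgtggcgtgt
Tm7sf2 (sterol reductase; chr19:6067851-6068100, - strand): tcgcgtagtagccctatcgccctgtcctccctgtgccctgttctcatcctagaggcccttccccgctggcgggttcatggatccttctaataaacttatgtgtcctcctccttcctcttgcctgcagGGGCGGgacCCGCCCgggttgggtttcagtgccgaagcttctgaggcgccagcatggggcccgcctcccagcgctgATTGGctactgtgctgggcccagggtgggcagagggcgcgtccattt

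The sterol element was found in the Hmgcs1 promoter, where it reads TCACCCCAC and begins 137 bases before the start, and in no other promoter of the set, so 1 of 24 (4.17%) held it against 1.44% of 27025 genes. These letters are a strict form of a variable element, and their absence from a window says only that the window does not hold them. The CCAAT box was found in 19 of 24 promoters (79.2%) against 41.1% of all genes, and the GC box in 20 of 24 (83.3%) against 38.2%, in windows of 250 bases before to 50 bases after the start. The E-box (CACGTG, the same on both strands) was found in 6 of 24 (25.0%) against 8.09%. No sites overlapped within the 5 promoters shown. These are matches of letters, and binding was not measured.

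Levels below are log2 of the scanner's processed signal minus the 75th percentile of the array, so that 0 is the level of that percentile. Differences are log2 differences with their standard errors, and adjusted p-values are from limma with Benjamini-Hochberg adjustment over all genes tested. Between 17254 and 28810 probes were well above background per array. Repeat spots varied more on the CD4 arrays at 12, 24 and 72 h (coefficient of variation 17.76 to 27.78%) than on the others (8.351 to 17.11%). Of the 868 values of the set, 12 on 8 genes were missing because their spots were outliers, and a fold is then based on the arrays left. The 8 T cell markers were well above background on all arrays at 0 h, with a summed signal of 347.3 to 517.4 times the 75th percentile in CD4 cells and 871.7 to 1247 times in CD8 cells, and 5 of 5 activation markers rose by 4 h in both. The T cell list includes Cd4, Cd8a and Cd8b1, so its detection does not tell CD4 from CD8 cells. Its sum at 4 h was 209.7 to 216.5 in CD4 and 512.8 to 689.3 in CD8 cells, with 5 and 4 of 8 called lower. Each slide held 1 cell type, and each stimulated time lay on slides of its own, so time after stimulation and slide cannot be told apart. In the authors' series matrix, 6 columns of stimulated CD8 cells at 4, 12 and 24 h hold values that belong to another scanner file. The labels of the scanner files are used here: in all 8 stimulated CD8 arrays the changes from 0 h resembled those of CD4 cells most at the time on the label.

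Most of the set was called higher than at 0 h from 12 h on in both cell types. No unstimulated group was taken at the later times, so stimulation and time in culture cannot be told apart. In CD4 cells 15 of 31 genes rose and 6 fell at 4 h, 20 rose and 2 fell at 12 h, 22 rose and 1 fell at 24 h, and 21 rose and 2 fell at 72 h. Of all genes tested, 32% were called at 4 h, 40.5% at 12 h, 44.6% at 24 h and 39% at 72 h in either direction, 15.7, 24.1, 25.1 and 22.1% were higher and 16.4, 16.4, 19.5 and 16.8% lower. The median change of the set was 0.75, 1.26, 1.62 and 1.30 in that order, against -0.08, 0.26, 0.07 and 0.21 over all genes.

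In CD8 cells 13 genes rose and 5 fell at 4 h, 16 rose and 2 fell at 12 h, 21 rose and 2 fell at 24 h, and 18 rose with none called lower at 72 h. The share called among all genes was 27.2, 30.1, 33.1 and 27.9% in either direction, 14.2, 15.9, 16 and 13.6% were higher and 13, 14.2, 17 and 14.3% lower. The median change was 0.38, 1.40, 1.48 and 0.99 against 0.08, 0.00, -0.10 and 0.01 over all genes. Without the array of young CD8 cells at 24 h the 23 calls of that time became 13. The comparisons of a cell type share its 6 arrays at 0 h, so their counts are not independent of each other. The summed signal of 8 B cell markers was 10.64 to 25.87 times the 75th percentile in CD8 cells at 0 h and 2.286 to 4.43 on the stimulated CD8 arrays, with 4, 5, 6 and 6 of 8 called lower at the 4 times. In CD4 cells it was 2.857 to 11.85 at 0 h and 1.192 to 4.056 on the stimulated arrays, with 3, 2, 2 and 2 of 8 called lower, and the part of these cells in the changes was not tested.

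**Figure D1:**
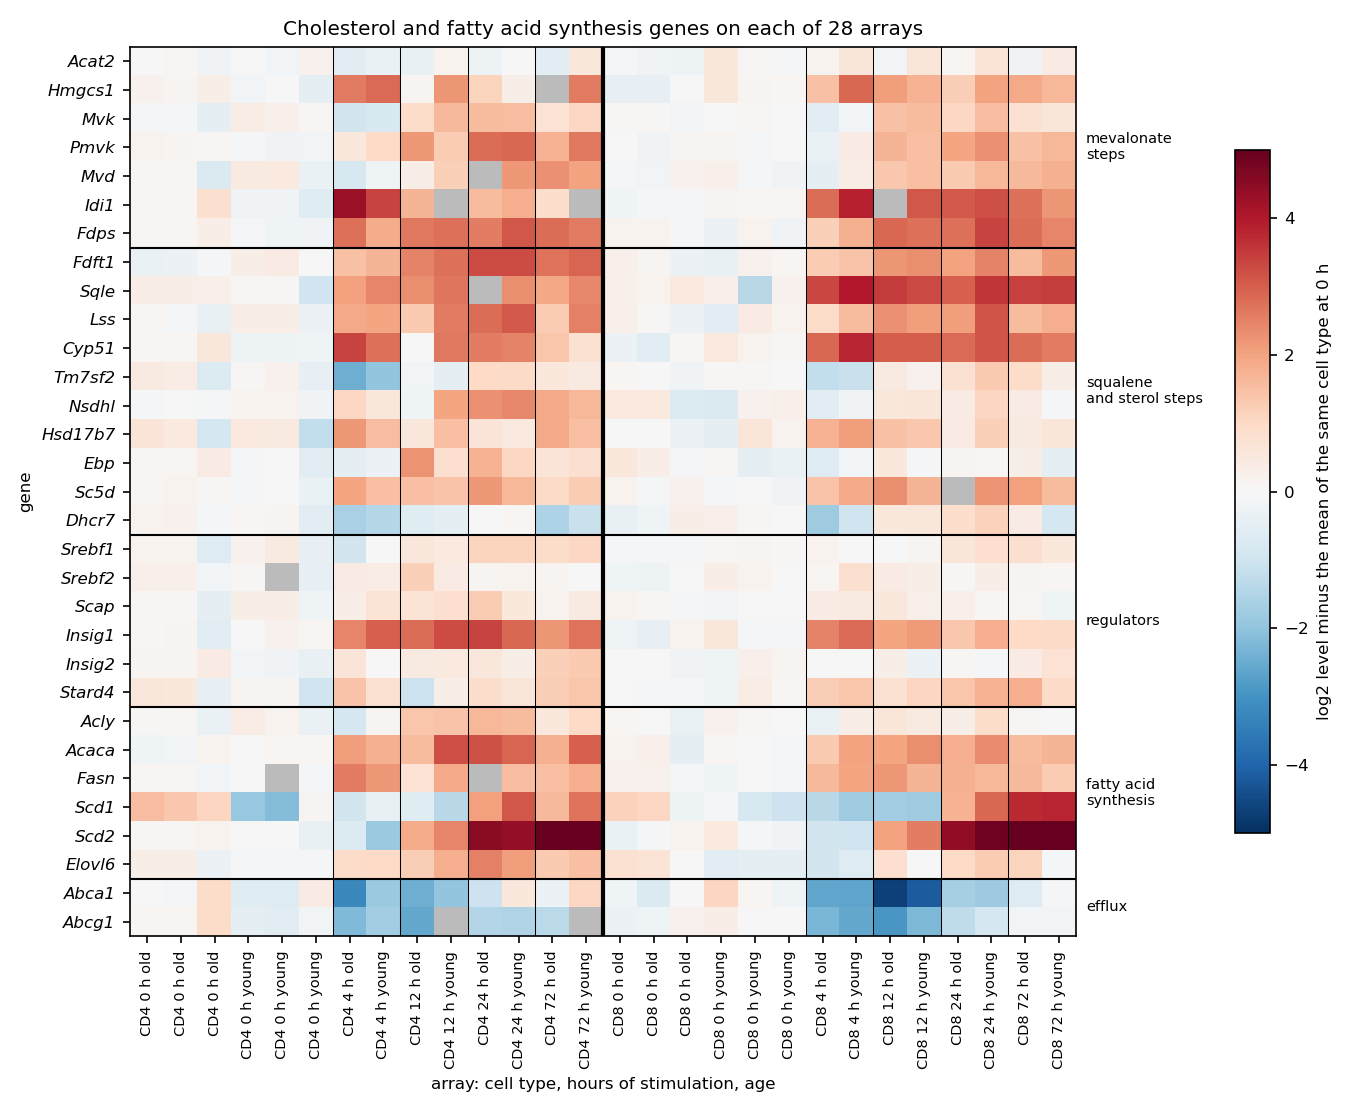
Log2 level of each of the 31 genes (rows, by role) on each of the 28 arrays (columns, by cell type, time and age), as the difference from the mean of the same cell type at 0 h; grey cells are missing values and the colour scale ends at 5 in either direction. Most rows turn red after stimulation in both cell types, Tm7sf2, Dhcr7 and Scd2 are blue at 4 h, and Abca1 and Abcg1 are blue at 4 and 12 h.

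Calls in both cell types were made for 13 rising genes at 4 h, 15 at 12 h, 18 at 24 h and 16 at 72 h, and no gene was called in opposite directions at the same time. By their brightest probes Acaca, Fasn, Fdft1, Fdps, Insig1, Lss, Sc5d and Sqle rose at all 4 times in both. Other probes of Acaca, Fdps, Lss and Sc5d were not called at some of these times. Shares of all genes called in both cell types, or at all 4 times, were not counted. These joint counts therefore cannot be set against a background. Acat2, whose enzyme joins acetyl-CoA units at the head of the pathway, was the only gene whose brightest probe was not called at any time in either cell type, with levels of -1.81 to -0.72 on the stimulated CD4 arrays against -1.43 to -1.07 at 0 h.

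In the mevalonate steps the sharpest early change was that of Idi1, whose product isomerises isopentenyl diphosphate. Its level in CD4 cells was 1.69, 2.24 and 3.10 (lowest, median and highest of 6 arrays) at 0 h and 6.62 in old and 5.67 in young cells at 4 h. Both stimulated arrays lay far above the 6 arrays at 0 h, a rise of 3.85 ± 0.29 (14.4-fold, adjusted p = 1.27e-07). By 24 h the level was 3.90 in old and 4.10 in young cells, still above 0 h by 1.70 ± 0.29 (adjusted p = 0.000185). At 72 h only the old array was measured, at 3.17, and the difference of 0.60 ± 0.40 did not pass the test (adjusted p = 0.256). The other Idi1 probe was higher in CD4 cells at 12 h by 3.03 ± 0.40 and was still called at 72 h (2.36 ± 0.40, adjusted p = 0.000119), so whether the rise faded by then depended on the probe. In CD8 cells Idi1 went from 1.33, 1.54 and 1.64 at 0 h to 4.33 in old and 5.42 in young cells at 4 h (10.2-fold, adjusted p = 6.47e-07). It was still at 4.27 and 3.75 at 72 h, above every array at 0 h (adjusted p = 1.21e-05).

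Hmgcs1, the HMG-CoA synthase that feeds mevalonate production, moved early as well. Its level in CD4 cells was 2.53, 3.10 and 3.33 at 0 h and 5.64 in old and 5.86 in young cells at 4 h, a rise of 2.72 ± 0.42 (adjusted p = 7.86e-05). The groups did not overlap at 4 h, whereas at 12 h the old array (3.18) lay within the range of 0 h and the young one (5.25) far above it. The call at 12 h (1.19 ± 0.42, adjusted p = 0.0323) was lost without that young array, with a difference of -0.03, and also without either of 2 young arrays at 0 h (adjusted p = 0.0518 and 0.0553). At 24 h the change was 0.71 ± 0.42 (adjusted p = 0.19). In CD8 cells Hmgcs1 rose at all 4 times, by 2.17 ± 0.42 at 4 h (levels 4.23 and 5.64 against 2.35, 2.80 and 3.33) and by 1.77 ± 0.42 at 72 h. Leaving out the young array at 4 or 24 h, or the old array at 12 or 72 h, ended the call of that time. Of the other Hmgcs1 probes, 1 followed the same course in CD8 cells and 1 did not, with a change of -1.07 ± 0.62 at 24 h. That probe fell in CD4 cells at 24 h, by 2.21 ± 0.62 (adjusted p = 0.00666), where the brightest stood at 0.71.

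Fdps, the farnesyl diphosphate synthase that supplies both sterols and protein prenylation, rose early and stayed up by its brightest probe. In CD4 cells its level was 1.98, 2.19 and 2.52 at 0 h, 4.95 in old and 4.05 in young cells at 4 h, and 4.98 and 4.79 at 72 h. Its rise was 2.30 ± 0.26 at 4 h, 2.82 ± 0.26 at 24 h and 2.68 ± 0.26 at 72 h (adjusted p at most 1.66e-06). The rise in CD8 cells was smaller at 4 h (1.49 ± 0.26) and reached 3.07 ± 0.26 at 24 h (8.38-fold, adjusted p = 1.06e-07), with levels of 4.30 and 4.96 against 1.29, 1.60 and 1.75 at 0 h. By this probe no stimulated array overlapped the arrays at 0 h in either cell type. The other Fdps probe was not called in CD4 cells at any time (-0.09 ± 0.85 at 24 h, adjusted p = 0.948). In CD8 cells that probe was called at 4 h (3.09 ± 0.85) and 12 h (2.66 ± 0.85) and not at 24 or 72 h.

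The kinases and the decarboxylase between these enzymes followed later. Pmvk, the phosphomevalonate kinase, stood by its brightest probe at 2.67 in old and 3.14 in young CD4 cells at 4 h against 1.99, 2.15 and 2.35 at 0 h, and at 4.96 and 5.02 at 24 h, a rise of 2.83 ± 0.26 (7.11-fold, adjusted p = 1.23e-07). Its small rise at 4 h (0.75 ± 0.26, adjusted p = 0.0348) was lost without the young array of that time (0.45) or any of the 3 young arrays at 0 h. Pmvk did not pass the test in CD8 cells at 4 h (0.04 ± 0.26, adjusted p = 0.941) and rose by 1.61 ± 0.26 at 12 h and 2.12 ± 0.26 at 24 h. The other Pmvk probe was nearly as bright (mean level 3.15 against 3.16). That probe rose in CD4 cells by only 1.28 ± 0.26 at 24 h (2.43-fold, adjusted p = 0.000435). It was not called there at 4 h (adjusted p = 0.0549) or 72 h (0.58 ± 0.26, adjusted p = 0.0779). In CD8 cells it rose by 2.23 ± 0.26 at 24 h. Mvk, the mevalonate kinase, fell in CD4 cells at 4 h by 0.83 ± 0.19 (adjusted p = 0.00215), with levels of -1.53 and -1.37 below all 6 arrays at 0 h (-1.10, -0.63 and -0.27). It then rose by 1.26 ± 0.19 at 12 h and 1.56 ± 0.19 at 24 h. Without the young CD4 array at 4 h the early fall was -0.72 (adjusted p = 0.053). In CD8 cells Mvk was at -0.36 ± 0.19 at 4 h (adjusted p = 0.181) and rose by 1.51 ± 0.19 at 12 h. Mvd, the mevalonate diphosphate decarboxylase, was not called at 4 h in either cell type and was higher from 12 h on in both, by 2.16 ± 0.28 in CD4 and 1.68 ± 0.28 in CD8 cells at 72 h. Its CD4 call at 12 h (0.75 ± 0.28, adjusted p = 0.0436) lies near the threshold and was lost on leaving out any of 12 single arrays.

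**Figure D2:**
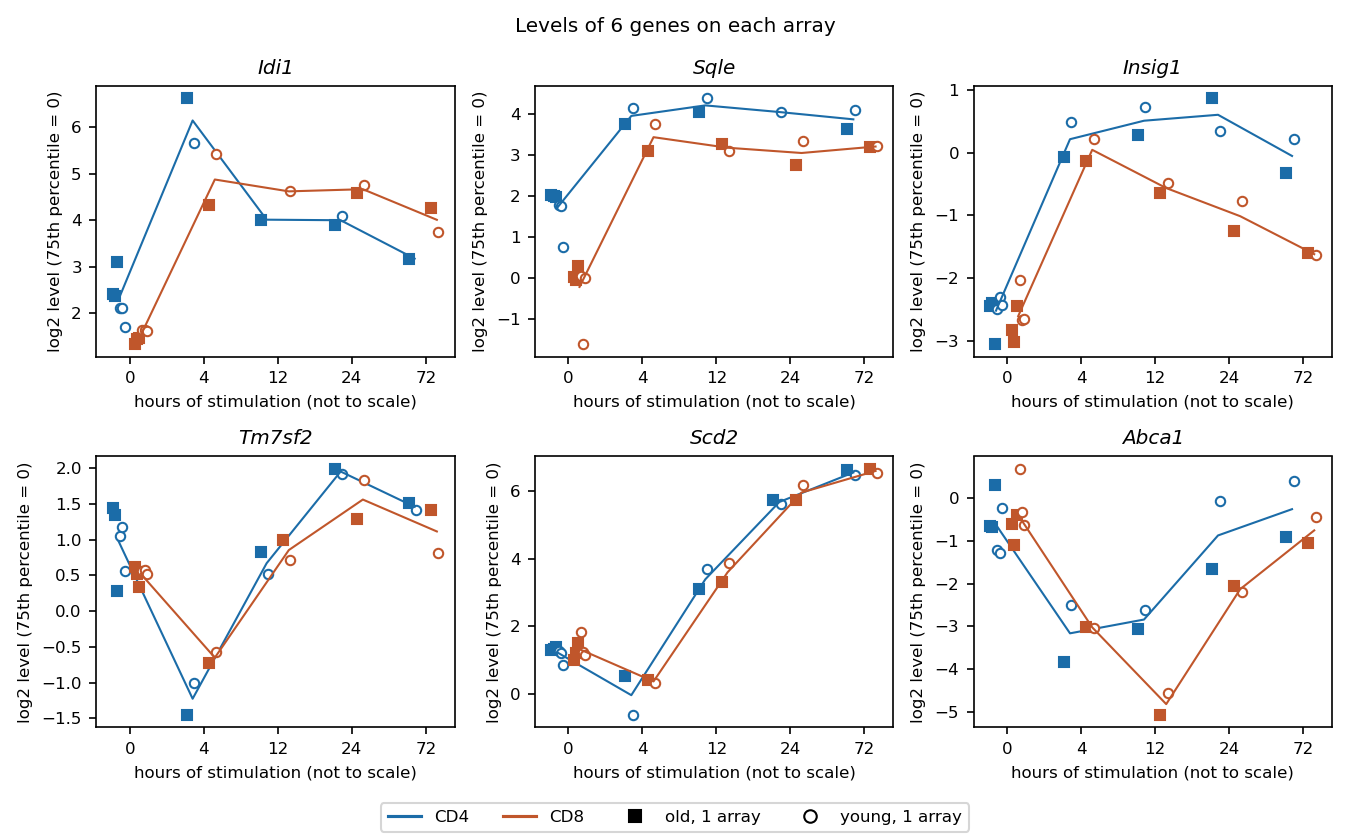
Log2 level (75th percentile of the array = 0) of 6 genes, each by its brightest probe, by hours of stimulation, with 1 point per array (squares old, circles young) and a line through the mean of each time in CD4 (blue) and CD8 (orange) cells. The Idi1 probe drawn peaks at 4 h in CD4 cells and stays up in CD8 cells, Sqle and Insig1 are high from 4 h on, Tm7sf2 and Scd2 dip at 4 h before they climb, and Abca1 falls at 4 and 12 h and returns toward its starting level.

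The squalene and sterol steps showed the same early and late groups. At 4 h 6 of the 10 genes rose and 2 fell in each cell type, and at 24 h 8 rose in CD4 and 7 in CD8 cells with none lower. Fdft1, the squalene synthase that commits farnesyl units to sterols, rose in CD4 cells at all 4 times and most at 24 h. Its levels of 0.52, 0.83 and 1.29 at 0 h became 2.32 in old and 2.57 in young cells at 4 h and 4.11 and 4.10 at 24 h. The 24 h rise was 3.24 ± 0.22 (9.47-fold, adjusted p = 4.4e-09), and it was 2.26 ± 0.22 in CD8 cells (levels 2.03 and 2.51 against -0.38, 0.12 and 0.25). All stimulated arrays lay above all arrays at 0 h.

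Sqle, the squalene epoxidase, showed its largest change in CD8 cells. From -1.63, 0.00 and 0.28 at 0 h it reached 3.11 in old and 3.77 in young CD8 cells at 4 h (12.7-fold, adjusted p = 4.65e-06) and remained at 3.20 and 3.21 at 72 h. A single young array at 0 h, at -1.63, stood apart from the other 5, which lay between -0.06 and 0.28. In CD4 cells Sqle started higher, at 0.74, 1.87 and 2.03, and reached 3.77 and 4.14 at 4 h, a rise of 2.24 ± 0.42. Its value on the old CD4 array at 24 h was missing, so the 24 h change of 2.38 ± 0.58 rests on 1 stimulated array.

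Cyp51, the lanosterol demethylase, rose by 3.07 ± 0.44 in CD4 and 3.34 ± 0.44 in CD8 cells at 4 h. In CD4 cells it went from -0.48, -0.28 and 0.35 to 3.17 in old and 2.54 in young cells. At 12 h the old CD4 array (-0.20) was inside the range of 0 h and the young one at 2.40, and without that young array the change was -0.22 and no longer called. The other 2 Cyp51 probes were called in CD4 cells at 12 h (2.93 ± 0.59, adjusted p = 0.000572, and 2.43 ± 0.32, adjusted p = 9.16e-06) and at 72 h (2.42 ± 0.59 and 2.25 ± 0.32), where the brightest was not. In CD8 cells the levels were 1.30 and 2.26 at 4 h and 1.23 and 1.04 at 72 h, all above the 0 h levels of -2.07, -1.49 and -1.05.

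Lss, the lanosterol synthase, rose at all times by its brightest probe, by 1.93 ± 0.33 in CD4 and 1.26 ± 0.33 in CD8 cells at 4 h and by 2.93 ± 0.33 and 2.62 ± 0.33 at 24 h. Its call in CD8 cells at 4 h was lost without the young array (1.02, adjusted p = 0.17). Another Lss probe was called in CD4 cells at 4 h alone (0.87 ± 0.31) and in CD8 cells at no time. At 24 h that probe stood at 0.53 ± 0.31 in CD4 and -0.02 ± 0.31 in CD8 cells. The remaining Lss probe was higher at all times in both. Sc5d, a sterol desaturase, rose at 4 h by 1.75 ± 0.21 in CD4 and 1.66 ± 0.21 in CD8 cells by its brightest probe. By that probe Sc5d stayed up, with no overlap of the arrays at any time. The other Sc5d probe was called at the earlier times in both cell types but not at 72 h. At 72 h that probe gave 0.07 ± 0.29 in CD4 (adjusted p = 0.873) and 0.52 ± 0.29 in CD8 cells (adjusted p = 0.196). Whether the rise of Sc5d lasted to 72 h thus depended on the probe. Hsd17b7, a sterol ketone reductase, rose by 1.85 ± 0.44 and 1.92 ± 0.44 at 4 h, and by its brightest probe was not called at 24 h in either cell type (0.57 ± 0.44, adjusted p = 0.314, and 0.81 ± 0.44, adjusted p = 0.174). Its other probe gave 0.46 ± 0.50 in CD4 cells at 24 h (adjusted p = 0.489) but was called in CD8 cells at 24 h (1.61 ± 0.50, adjusted p = 0.0174) and 72 h (1.58 ± 0.50, adjusted p = 0.0232). The early calls of the brightest probe were lost without the old CD4 array (adjusted p = 0.092) or without the young CD8 array (adjusted p = 0.056).

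Tm7sf2 and Dhcr7, both reductases of the sterol ring system, fell first. Tm7sf2 stood at 0.28, 1.11 and 1.44 in CD4 cells at 0 h and at -1.45 in old and -1.001 in young cells at 4 h, below every array at 0 h (-2.20 ± 0.28, 4.60-fold lower, adjusted p = 6.5e-06). At 24 h it was at 1.99 and 1.91, above every array at 0 h (0.98 ± 0.28, adjusted p = 0.00731). Tm7sf2 in CD8 cells went from 0.34, 0.54 and 0.61 to -0.72 and -0.58 at 4 h and to 1.28 and 1.84 at 24 h, a fall and a later rise that both passed the test. Leaving out either CD4 array at 24 h, the old CD8 array at 4 h or the young CD8 array at 24 h ended the call in question.

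Dhcr7, the reductase of the last step to cholesterol, was at 1.26 in old and 1.46 in young CD4 cells at 4 h against 2.36, 3.02 and 3.09 at 0 h (-1.54 ± 0.30, adjusted p = 0.000581). It was back at 2.90 and 2.97 at 24 h and low again at 72 h, at 1.35 and 1.79. The 72 h arrays lay below all arrays at 0 h (-1.32 ± 0.30, adjusted p = 0.0018), a call lost without the old array (adjusted p = 0.054). Dhcr7 fell in CD8 cells by 1.39 ± 0.30 at 4 h and rose by 1.02 ± 0.30 at 24 h, with levels of 3.65 and 3.93 against 2.38, 2.78 and 3.09. Either call was lost on leaving out 1 array of its time.

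Nsdhl and Ebp differed in what passed the test. Nsdhl, a sterol dehydrogenase, rose in CD4 cells by 2.34 ± 0.42 at 24 h (levels 1.55 and 1.66 against -0.89, -0.77 and -0.54) and by its brightest probe was not called at any time in CD8 cells (0.74 ± 0.42 at 24 h, adjusted p = 0.2). Another Nsdhl probe was called in CD8 cells at 4 h (2.08 ± 0.32, adjusted p = 8.91e-05) and 12 h (0.95 ± 0.32, adjusted p = 0.0327). Ebp, a sterol isomerase, rose in CD4 cells by 1.54 ± 0.30 at 12 h (0.95 and not called without the old array) and 1.39 ± 0.30 at 24 h and stood in CD8 cells at 0.25 ± 0.30 and 0.11 ± 0.30. The difference between the cell types did not pass the test for either gene (adjusted p = 0.118 for Nsdhl and 0.0854 for Ebp at 24 h).

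If the CD8 arrays are given the times of the authors' series matrix in place of those of the scanner files, several CD8 values change sign. Scd2 (2.27), Dhcr7 (0.54) and Tm7sf2 (0.33) are then above 0 at 4 h, and at 24 h Scd2 (-0.95), Dhcr7 (-1.39), Tm7sf2 (-1.17), Scd1 (-1.57) and Elovl6 (-0.78) are below 0. The early fall and late rise of Scd2, Dhcr7 and Tm7sf2 in CD8 cells therefore rest on the scanner files' labels. So do the CD8 rises of Scd1 and Elovl6 at 24 h, whose lower values at 4 h did not pass the test. In CD4 cells, where each matrix column matched best the scanner file of its own label, Tm7sf2 and Scd2 fell at 4 h and were higher at 24 h. The others did not all do so, since Dhcr7 was at 0.04 at 24 h and Elovl6 rose by 0.96 at 4 h. The values of the stimulated CD4 columns were offset from the scanner files (median 0.433, over 0.3 for 66.1% of probes). The matrix was therefore not used for CD4 cells against 0 h.

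Insig1, the feedback gene among the regulators, rose at all 4 times in both cell types. Its level in CD4 cells was -3.05, -2.43 and -2.30 at 0 h, -0.06 in old and 0.49 in young cells at 4 h, 0.86 and 0.34 at 24 h, and -0.32 and 0.22 at 72 h. All stimulated arrays lay above all arrays at 0 h, and the change was 2.73 ± 0.25 at 4 h and 3.12 ± 0.25 at 24 h (8.68-fold, adjusted p = 2.51e-08). CD8 cells began alike, with a rise to -0.13 and 0.21 at 4 h from -3.01, -2.66 and -2.02, by 2.65 ± 0.25. Insig1 then stood lower, at -1.25 and -0.77 at 24 h and at -1.60 and -1.64 at 72 h, where the rise was 0.99 ± 0.25 (adjusted p = 0.00542). Without the old CD8 array at 72 h that call was lost (0.81, adjusted p = 0.12).

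Insig2, the second retention protein, was not called before 72 h in either cell type. At 72 h it was at 2.18 in old and 2.27 in young CD4 cells, above the 0.60, 0.98 and 1.37 of 0 h (1.25 ± 0.21, adjusted p = 0.000107). The CD8 rise of 0.57 ± 0.21 (adjusted p = 0.0467) was lost on leaving out most single arrays, and another Insig2 probe gave 0.18 ± 0.41 in CD4 and 0.03 ± 0.41 in CD8 cells.

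The genes of the transcription factors and their escort were called at some times, and for Srebf2 the calls depended on the probe. Srebf1, which encodes the SREBP forms tied to fatty acid synthesis, rose by 1.13 ± 0.26 in CD4 and 0.71 ± 0.26 in CD8 cells at 24 h (adjusted p = 0.00139 and 0.038). Its CD4 levels were 5.56 on both arrays at 24 h against 3.803, 4.62 and 4.88. The CD8 call was lost without any of 6 single arrays. Srebf2, which encodes the form tied to cholesterol synthesis, was called by its brightest probe in CD4 cells at 12 h alone (0.83 ± 0.22, adjusted p = 0.00573), where the old array was at 6.57 and the young at 5.82. Without the old array the change was 0.52 (adjusted p = 0.2). Of its 3 other probes, 1 was higher at all 4 times in both cell types (2.00 ± 0.26 in CD4 cells at 72 h, adjusted p = 7.7e-06, and 1.15 ± 0.26 in CD8 cells at 4 h, adjusted p = 0.00255). Another was higher in CD4 cells at 12, 24 and 72 h (1.58 ± 0.23 at 72 h, adjusted p = 2.54e-05) and in CD8 cells at 4, 12 and 24 h, and the other one was not called. Scap rose in CD4 cells at 12 h (0.77 ± 0.23, lost without either array of that time) and 24 h (0.89 ± 0.23) and was not called in CD8 cells. Its CD4 call at 24 h rested on the old array, at 5.94, and without it the change was 0.38 (adjusted p = 0.32).

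Stard4, a soluble carrier that moves sterols between membranes, rose at 4 h in both cell types, 2.15-fold in CD4 (adjusted p = 0.0347) and 2.48-fold in CD8 cells (adjusted p = 0.0155), and both calls were lost without either array of that time. At 12 h its brightest probe did not pass the test in CD4 cells (-0.39 ± 0.39), whereas its other probes gave 2.84 ± 0.30 and 3.16 ± 0.25 there. At 24 h these probes gave 3.16 ± 0.30 and 3.79 ± 0.25 in CD4 and 2.89 ± 0.30 and 2.60 ± 0.25 in CD8 cells, against 0.74 ± 0.39 and 1.56 ± 0.39 for the brightest. The probes of this gene thus differed in size by more than their errors.

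Of the 31 genes, 13 had a single tested probe and 18 had more, 59 probes in all. Values of other probes come from the same limma fit run over all probes that passed the filter, with p-values adjusted over those probes. Over the 8 comparisons with 0 h the other probes gave 224 values, of which 139 had the same call as the brightest, 55 were not called where it was, 30 were called where it was not, and 0 were called in the opposite direction. Where probes of a gene gave changes of opposite sign at 4 or 24 h, the genes were Acaca, Acly, Fdps, Hmgcs1, Insig2, Lss, Nsdhl and Srebf2. For Acly the dimmer probe stood at -1.76 ± 0.73 in CD4 cells at 24 h (adjusted p = 0.0568) while the brighter rose, so its direction is uncertain.

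By their brightest probes the 6 genes of fatty acid synthesis were called higher in CD4 cells at 24 and 72 h, and 5 and 4 of them in CD8 cells. For Acly the probes differ in direction, and the CD4 call of Scd1 at 72 h was lost without the young array of that time or without either of 2 young arrays at 0 h. Scd2, a desaturase that puts the double bond into new fatty acids, had the largest changes of the set at 24 and 72 h. Its level in CD4 cells was 0.87, 1.28 and 1.40 at 0 h, 0.54 in old and -0.62 in young cells at 4 h, and 3.10 and 3.68 at 12 h. It stood at 5.74 and 5.61 at 24 h and at 6.64 and 6.46 at 72 h, a rise of 5.32 ± 0.26 (40.0-fold, adjusted p = 4.43e-10). The 4 h arrays lay below all 0 h arrays (-1.26 ± 0.26, adjusted p = 0.00101) and those of the later times above them. In CD8 cells the course was alike in order, with 0.41 and 0.33 at 4 h, 5.74 and 6.17 at 24 h and 6.66 and 6.53 at 72 h against 0.99, 1.23 and 1.82 at 0 h (38.7-fold at 72 h). The early fall was lost without the young array of 4 h in either cell type (-0.72, adjusted p = 0.11, in CD4 and -0.80, adjusted p = 0.18, in CD8 cells).

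Scd1, the paralogue of Scd2, was dim. It was not well above background on either CD4 array or either CD8 array at 12 h, nor on 2 of the 3 young CD4 arrays at 0 h. At 24 h it stood at -1.77 in old and -0.72 in young CD4 cells, above the 0 h levels of -6.00, -3.23 and -2.29 (2.58 ± 0.79, adjusted p = 0.012), and at 0.66 and 0.75 in CD8 cells at 72 h, above -4.13, -3.25 and -1.94 (13.8-fold, adjusted p = 0.0013). The CD4 call at 24 h was lost without the young array (1.47, adjusted p = 0.3).

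Acaca, the acetyl-CoA carboxylase that makes malonyl-CoA, rose at all times in both cell types by its brightest probe. Its other probes were dimmer and gave fewer calls. The brightest of those was not called at any time (0.51 ± 0.46 in CD4 and -0.44 ± 0.46 in CD8 cells at 24 h). By the probe used, Acaca in CD4 cells went from -2.32, -2.09 and -1.92 to -0.01 in old and -0.32 in young cells at 4 h and 1.08 and 0.82 at 24 h (3.06 ± 0.32, 8.33-fold, adjusted p = 5.14e-07), and in CD8 cells it rose by 1.67 ± 0.32 and 2.09 ± 0.32 at these times. Fasn, the fatty acid synthase, was highest in CD4 cells at 4 h, at 7.60 in old and 7.23 in young cells against 4.92, 5.07 and 5.18 on 5 arrays at 0 h (5.06-fold, adjusted p = 3e-06). Its CD4 call at 12 h (1.29) was lost without the young array of that time (0.71). The CD4 change at 24 h rests on the young array, since the value of the old array was missing. In CD8 cells Fasn rose by 1.79 ± 0.25 at 4 h. It stayed there between 6.64 and 7.54 thereafter, above all arrays at 0 h (5.17, 5.32 and 5.61).

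Elovl6, which lengthens new fatty acids, rose in CD4 cells at all times, up to 2.30 ± 0.30 at 24 h (levels 1.60 and 1.19 against -1.19, -0.996 and -0.63). The CD4 call at 4 h (0.96 ± 0.30) was lost without either array of that time. In CD8 cells it was at -0.60 and -0.32 at 4 h, below all 0 h arrays (-0.78 ± 0.30, adjusted p = 0.0676), and rose by 1.13 ± 0.30 at 24 h, a call lost without the young array (0.60, adjusted p = 0.34). Acly, the citrate lyase that makes cytosolic acetyl-CoA, rose in CD4 cells at 12, 24 and 72 h, by 1.62 ± 0.25 at 24 h (at 72 h lost without either array of that time), and was not called in CD8 cells (0.61 ± 0.25 at 24 h, adjusted p = 0.0705).

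The exporters went the other way. Abca1 stood at -1.28, -0.66 and 0.30 in CD4 cells at 0 h and at -3.83 in old and -2.50 in young cells at 4 h (5.81-fold lower, adjusted p = 0.000387), and it was not called at 24 or 72 h. In CD8 cells it went from -1.11, -0.50 and 0.69 to -3.01 and -3.04 at 4 h, and at 12 h it was not well above background on either array. The 12 h difference is thus a bound, at least 19.4-fold lower (adjusted p = 2.3e-06), measured against the lowest signals above background of those arrays. By 72 h it was at -1.06 and -0.45, within the range of 0 h. Abcg1 fell in CD4 cells at all times, by 1.96 ± 0.29 at 4 h and 1.48 ± 0.29 at 24 h, with levels of 1.36 and 1.83 at 4 h and 2.11 and 2.04 at 24 h against 3.01, 3.55 and 4.49. In CD8 cells it fell by 2.43 ± 0.29 at 4 h and 2.58 ± 0.29 at 12 h and was back at 3.39 and 3.41 at 72 h, inside the range of 0 h. The CD8 call at 24 h was lost without the young array for Abca1 and without either array for Abcg1.

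Myeloid cells also carry these exporters, and the markers of such cells are given beside them. The summed signal of 9 myeloid markers was 3.257 to 176.2 times the 75th percentile in CD4 cells at 0 h, 10.45 to 21.33 at 4 h, 4.291 to 5.731 at 12 h, 2.331 to 2.418 at 24 h and 1.385 to 2.538 at 72 h. In CD8 cells it was 9.104 to 43.33 at 0 h, 4.468 to 10.94 at 4 h, 1.082 to 1.91 at 12 h, 0.7641 to 0.9179 at 24 h and 1.129 to 1.477 at 72 h. In CD4 cells at 4 and 12 h, where both exporters were lower, the sum lay inside the range of 0 h, which is too wide to decide anything. In CD8 cells at 12 h both exporters and the sum were below their ranges at 0 h. At 72 h the CD8 sum was still below its range and both exporters were back within theirs. At 4 h 1 of the 9 markers was called lower in CD4 and 2 in CD8 cells, and at 12 h 0 and 6 of them. At 24 h 5 and 6 were called lower, with Itgam not well above background on any of the 4 arrays of that time. The part of these cells in the exporters' change was not tested, and in bulk RNA fewer cells of a type and less RNA per cell cannot be told apart. The summed markers of dividing cells were 0.5738 to 3.526 in CD4 cells at 0 h, 0.9466 to 2.239 at 4 h and 33.14 to 35.4 at 24 h. At 4 h, when 13 genes of the set were called higher in both cell types, none of the 5 division markers was called in either. Any tie of these genes to division was not tested.

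Old and young cells were set apart only as 1 array each after stimulation. The change from 0 h had the same sign in both ages for 29 of 31 genes in CD4 cells at 4 h, 24 of 29 at 12 h, 25 of 28 at 24 h and 26 of 28 at 72 h. For CD8 cells the numbers were 25 of 31, 29 of 30, 28 of 30 and 25 of 31 genes. At CD4 12 h the 2 arrays lay far apart for Hmgcs1, Cyp51, Nsdhl (-0.96 old, 1.26 young) and Acaca (-0.55 and 1.095), where the old array had the fewest probes above background of all 28.

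The response of CD8 cells was then set against that of CD4 cells as a difference of differences. At 4 h no gene of the set passed, where 0.0616% of all genes did (0.0205% higher and 0.041% lower), and at 12 h none passed, where 1.24% did (0.463% higher and 0.778% lower); 5 and 9 genes were under an unadjusted p of 0.05. At 24 h 1 gene passed (4.81% of all genes, 1.93% higher and 2.87% lower) and at 72 h 2 (8.17%, 3.15% higher and 5.02% lower). Insig1 rose less in CD8 cells at 24 h, by 1.53 ± 0.35 (adjusted p = 0.0215), and at 72 h, by 1.48 ± 0.35 (adjusted p = 0.0147), although its rise at 4 h differed by only -0.08 ± 0.35. Idi1 kept more of its rise in CD8 cells at 72 h, by 1.88 ± 0.50 (adjusted p = 0.0302), where 1 CD4 array was measured.

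These calls were not firm. The other Insig1 probe gave a difference of 0.35 ± 0.49 at 24 h and -0.60 ± 0.49 at 72 h, and the other Idi1 probe 0.46 ± 0.56 at 72 h, none of them called (adjusted p = 0.733, 0.502 and 0.682). With only the 0 h arrays scanned in the same series as the stimulated ones, Insig1 stood at -2.12 ± 0.46 at 24 h (adjusted p = 0.105) and Idi1 at 2.04 ± 0.81 at 72 h (adjusted p = 0.231), and leaving out the old CD8 array at 72 h ended both calls of that time. The Insig1 call at 24 h was also lost without the old CD4, old CD8 or young CD8 array of that time, and that at 72 h without the young CD4 or young CD8 array.

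**Figure D3:**
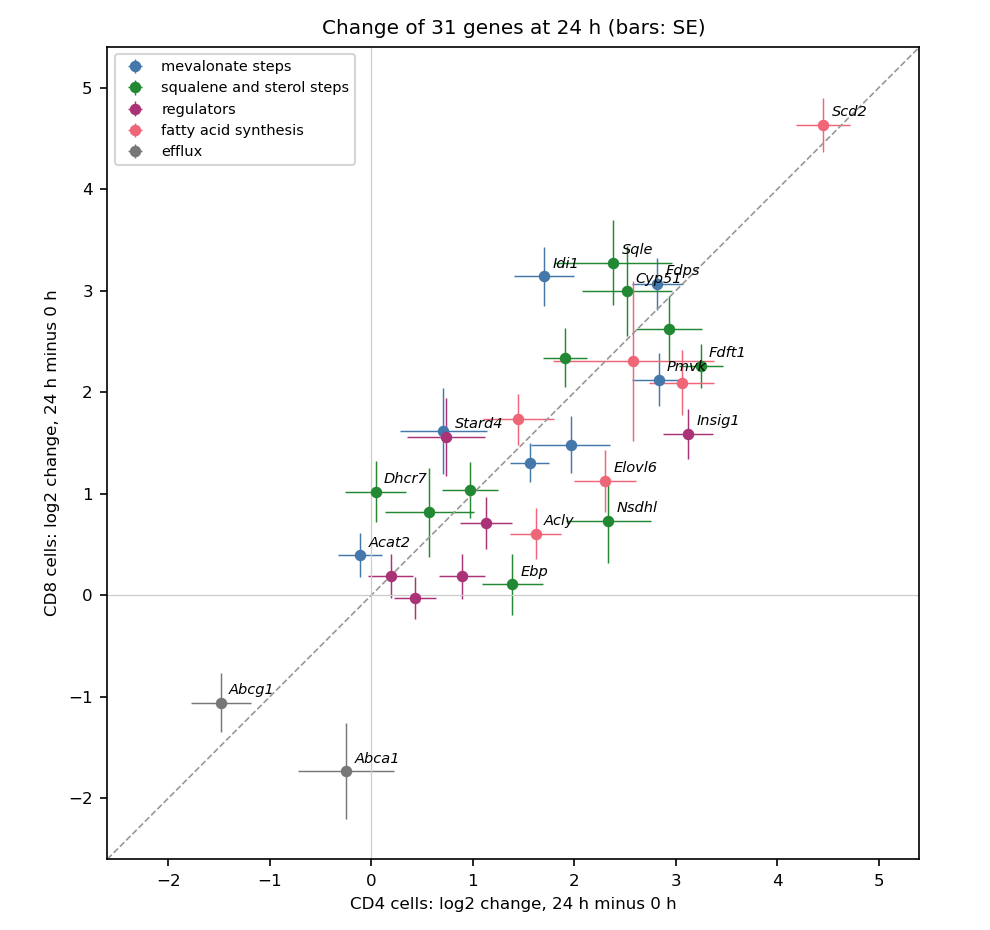
Log2 change from 0 h to 24 h of the 31 genes in CD4 (horizontal axis) and CD8 cells (vertical axis), 1 point per gene coloured by role with bars of 1 standard error; the dashed line marks equal change. Most points lie above 0 on both axes, Scd2 is highest on both at 4.45 and 4.63, Insig1 lies below the line, and Abcg1 is below 0 on both.

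From 24 h to 72 h little of the set passed. In CD4 cells Insig2 rose by 0.82 ± 0.25 (adjusted p = 0.0359) and Dhcr7 and Sc5d fell by 1.37 and 0.79 (adjusted p = 0.0182 and 0.0499), 3 of 31 genes where 15.8% of all genes were called (7.11% higher and 8.67% lower), and each call was lost on leaving out 1 or more single arrays. In CD8 cells none was called, where 0.734% of all genes were (0.585% higher and 0.149% lower), and 6 genes were under an unadjusted p of 0.05. The median of the set was -0.44 in CD4 and -0.30 in CD8 cells, against 0.12 and 0.06 over all genes.

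Before stimulation the cell types already differed. Of the 31 genes 6 were lower and 1 higher in CD8 than in CD4 cells, where 13.6% of all genes were called (4.9% lower and 8.7% higher). The 6 lower genes were Idi1, Fdps, Fdft1, Sqle, Cyp51 and Sc5d. Sqle was 3.83-fold lower (-1.94 ± 0.31, adjusted p = 0.00293), its levels being -1.63, 0.00 and 0.28 in CD8 and 0.74, 1.87 and 2.03 in CD4 cells. Cyp51 was 2.54-fold lower (-1.35 ± 0.15, adjusted p = 0.000364), with the highest CD8 array at -1.05 and the lowest CD4 array at -0.48. No array of one cell type overlapped those of the other for any of the 7 genes. B cell markers differed as well, with 3 of 8 higher in CD8 cells and a summed signal of 10.64 to 25.87 times the 75th percentile against 2.857 to 11.85 in CD4 cells, and their part in these differences was not tested.

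The other differences were smaller. Fdft1 was lower by 0.86 ± 0.16, Idi1 by 0.77 ± 0.15, Fdps by 0.64 ± 0.12 and Sc5d by 0.56 ± 0.11 (adjusted p from 0.00699 to 0.0113). The elongase gene Elovl6 went the other way, at -0.20, 0.07 and 1.08 in CD8 against -1.19, -0.996 and -0.63 in CD4 cells (1.23 ± 0.17 higher, adjusted p = 0.00121). Leaving out any single array kept all 7 calls. With arrays of a group on 1 slide averaged none of the 7 passed, and with slide as a random block 1 did, since each slide holds 1 cell type and 4 slides carry the comparison. Among the 8 arrays scanned in 1 session, 16 genes were lower and 7 higher, where 49% of all genes were called and replicates of a group shared a slide.

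**Figure D4:**
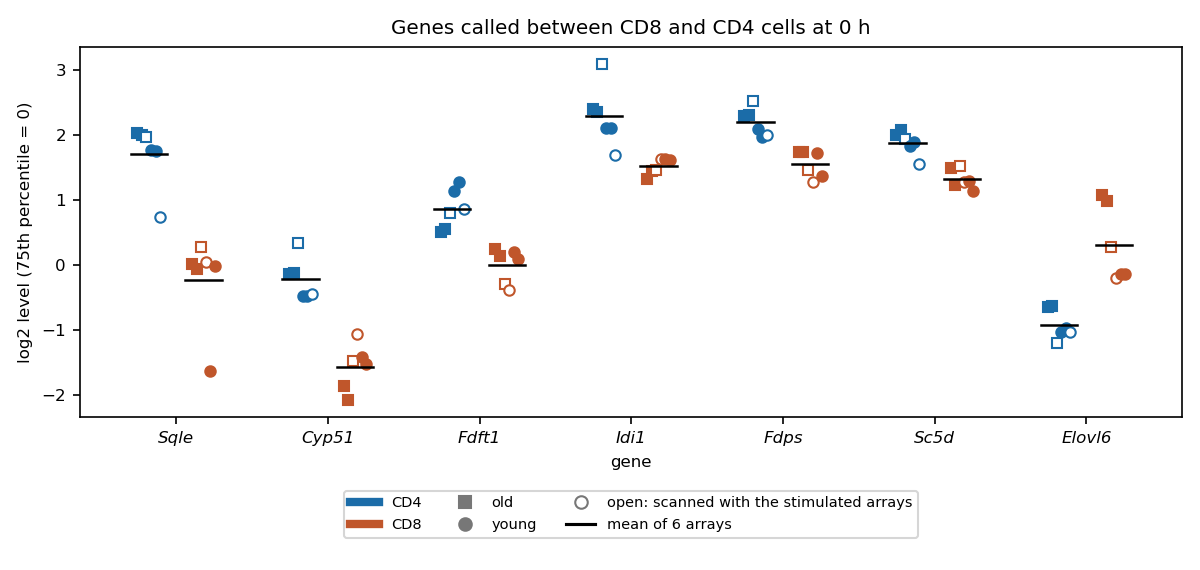
Log2 level (75th percentile of the array = 0) at 0 h of the 7 genes called between CD8 (orange) and CD4 cells (blue), 1 point per array with old as squares and young as circles, open where the array was scanned with the stimulated series, and a bar at the mean of 6 arrays. The 6 genes on the left are lower on every CD8 array than on any CD4 array and Elovl6 is higher, and 1 young CD8 array stands apart for Sqle at -1.63.

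Age did not separate the set by the test. At 0 h none of the 31 genes was called between old and young CD4 cells, where 1.71% of all genes were (1.2% higher and 0.508% lower in old), nor between old and young CD8 cells, where 2.16% were (1.65% higher and 0.508% lower), with 6 and 2 genes under an unadjusted p of 0.05. The same held over the stimulated arrays in limma (0.113% of all genes in CD4, 0.103% higher and 0.0103% lower, and 0.41% in CD8 cells, 0.328% higher and 0.0821% lower, with 3 and 1 genes under an unadjusted p of 0.05). For how far the age difference itself changed on stimulation, the share of all genes past the threshold was 0% in CD4 and 0.0103% in CD8 cells (0.00513% up and 0.00513% down), and 3 genes in CD4 and 0 in CD8 cells were under an unadjusted p of 0.05.

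The genes nearest to the threshold were the desaturase Scd1 and the elongase Elovl6. Scd1 was at -2.29, -2.50 and -2.76 on the old and at -5.71, -6.00 and -3.70 on the young CD4 arrays, so that the ages did not overlap (2.62 ± 0.59, adjusted p = 0.0606). The 2 lowest young arrays were not well above background, so the size of this difference was not measured. With these 2 held at the lowest signal above background of their arrays, old cells stood at least 3.17-fold above young ones over both slides and at least 4.07-fold on the slide of those 2, and the gap was 0.94 on the other slide. Elovl6 was at 1.08, 0.99 and 0.28 on the old and at -0.20, -0.13 and -0.14 on the young CD8 arrays (0.94 ± 0.24, adjusted p = 0.0902), 1.17 apart on 1 slide and 0.47 on the other. Over the stimulated CD4 arrays Abca1 was lower in old cells by 1.17 ± 0.26 (adjusted p = 0.194).

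With slide as a fixed block more genes of the set were called for age, in counts near the shares of all genes. The error of this fit draws in part on arrays of 1 group that share a slide. The SD of log2 differences over the set was 0.0682 to 0.3326 between such arrays and 0.4855 to 0.7148 between arrays on different slides. In CD4 cells 8 genes were then called, where 22.7% of all genes were: Abcg1, Cyp51, Insig2, Scd1 and Stard4 higher and Fdft1, Mvd and Mvk lower in old cells. The call of Scd1 uses the same 2 values below background. Abcg1 was higher by 0.76 ± 0.11 (adjusted p = 0.00496) and Mvk lower by 0.45 ± 0.09 (adjusted p = 0.0147). In CD8 cells 2 were called, Elovl6 higher (adjusted p = 0.0147) and Hmgcs1 lower (adjusted p = 0.0421), where 9.57% of all genes were. Without the block, 4 of 8 B cell markers were higher in old CD4 cells, where 1.2% of all genes were, and 2 of 8 in old CD8 cells, where 1.65% were. Their summed signal was 10.84 to 11.85 times the 75th percentile in old and 2.857 to 4.812 in young CD4 cells, and 16.9 to 25.87 in old and 10.64 to 12.04 in young CD8 cells, and their part in the age differences was not tested.

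**Figure D5:**
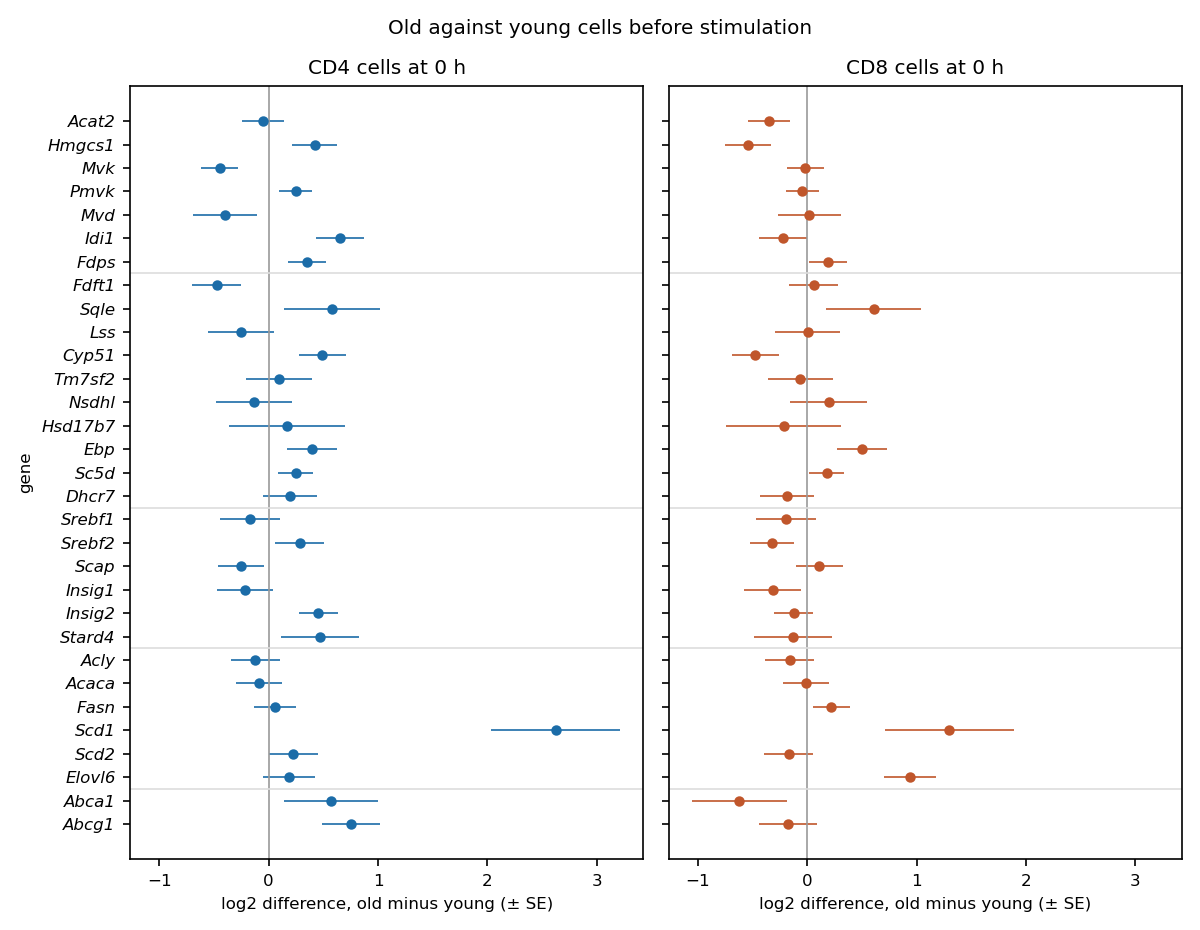
Log2 difference of old minus young cells at 0 h for each of the 31 genes in CD4 (left) and CD8 cells (right), with bars of 1 standard error and 3 arrays per age. Most points lie within 1 of 0, Scd1 lies farthest to the right at 2.62 in CD4 cells, where 2 of 3 young arrays were not well above background, and at 1.30 in CD8 cells, and none of the differences passed the test.

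A further 35 genes around the pathway were followed, of which 34 were tested. In CD4 cells 11 rose and 7 fell at 4 h, 16 and 5 at 12 h, 20 and 6 at 24 h and 16 and 6 at 72 h, where 15.7, 24.1, 25.1 and 22.1% of all genes rose and 16.4, 16.4, 19.5 and 16.8% fell. In CD8 cells 13 rose and 4 fell, then 14 and 4, 15 and 4, and 15 and 3, where 14.2, 15.9, 16 and 13.6% of all genes rose and 13, 14.2, 17 and 14.3% fell. Those called in 1 direction at 3 or more of the 4 times were ranked by their change at 24 h. The mitochondrial citrate carrier gene Slc25a1, which supplies the citrate that Acly splits, came first in both cell types (3.38 ± 0.26 in CD4 and 2.77 ± 0.26 in CD8 cells). It was followed in CD4 cells by Soat1, which esterifies cholesterol for storage (2.47 ± 0.23), Pdss1 of the ubiquinone branch (2.34 ± 0.35), the lipoprotein receptor gene Scarb1 (2.26 ± 0.25) and the phospholipid acyltransferase gene Lpcat3 (2.02 ± 0.30).

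In CD8 cells Acsl3, which activates fatty acids (2.52 ± 0.46), Scarb1 (2.18 ± 0.25) and the desaturase gene Fads1 (2.16 ± 0.23) were also named. Mylip, a liver X receptor target whose product degrades lipoprotein receptors, fell most in both (-2.67 ± 0.35 and -2.24 ± 0.35). Acss2, which makes acetyl-CoA from acetate, fell with it (-2.26 ± 0.50 and -2.07 ± 0.50). Acacb, the mitochondrial carboxylase, Nr1h3, which encodes a liver X receptor, and the SREBP protease gene Mbtps1 were the others named by this rule in CD4 cells (-1.36 ± 0.37, -1.30 ± 0.41 and -1.02 ± 0.32).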

How the data were processed

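The deposited scanner files hold intensity values of 28 one-colour arrays. Per the file headers, Agilent Feature Extraction made them (version 10.1.1.1 on 18 arrays and 9.5.1.1 on 10), and the processed signal used is its background-subtracted value. A series matrix of log2 values, deposited by the authors, was used only as an alternative. Control spots were dropped, outlier spots were set to missing, repeat spots were averaged, and each array's 75th percentile was subtracted after taking log2. From 41174 probes the brightest per gene was kept where at least 3 arrays had it well above background. A gene below that level throughout a group has a bound for its fold, against the lowest signal above background on each array.

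The test was limma (3.58.1, R 4.3.3; lmFit, eBayes) over 19490 genes, in 21 comparisons, and a gene was called at a p under 0.05 after Benjamini-Hochberg adjustment. Stimulated times were compared with 0 h over all 28 arrays (means for cell type by time, an age term per cell type), and cell types and ages at 0 h over the 12 arrays of that time. Stimulated groups of 1 array are taken to vary like the others, and the number of arrays limits the precision. Python 3.11.15, pandas 2.3.3, numpy 2.4.6, matplotlib 3.10.9 and the R package data.table (version 1.17.8) handled data and plots. Tests were tried on simulated data.

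All 31 listed genes are reported, by role. Other pathway genes are named if called in 1 direction at 3 or more of 4 times, up to 5 per direction and cell type by size at 24 h. The members and lists were chosen with earlier results of these data known. At 0 h, same-numbered old and young CD4 arrays share a slide, and their deviations correlated (r 0.546, 0.485 and 0.682). Numbers 1 and 2 lie on the same slide, so the CD4 numbers follow slides and do not mark pairs. For same-numbered CD8 arrays r was -0.239, 0.083 and -0.407. Some genes of the pathway are not reported here.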

Additional observations from a re-analysis of the deposited data

Results flagged for a closer look

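The response of CD8 cells differed from that of CD4 cells, by a test of the difference itself, for 3 values of 2 genes. Insig1 rose less in CD8 cells at 24 h (-1.53 ± 0.35, adjusted p = 0.0215 in limma) and at 72 h (-1.48 ± 0.35, adjusted p = 0.0147), and Idi1 kept more of its rise at 72 h (1.88 ± 0.50, adjusted p = 0.0302). The median difference of the set was -0.26 at 24 h and -0.21 at 72 h, close to the -0.23 and -0.19 over all genes. The other probe of each gene gave no call, each call was lost on leaving out at least 1 single array, and with slide as a random block no gene was called at either time; the cause was not tested.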

How the results depend on the processing

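Over 179 gene calls and 47 settings, 7013 of 7393 values kept their direction and their side of the threshold, 364 lost the call and 16 changed sign; the causes were not tested. Of these settings 28 left out 1 array, often 1 outside the comparison, and the change itself then could not move. The total is therefore no measure of how firm single calls were. The alternatives for scan session and series, same-slide averaging, normexp on median signals, the noisier CD4 arrays and the CD8 times of the matrix were chosen after seeing the data. Normexp on mean signals could not be run, since not every file has that column. The shift of the median of all genes was 0.02 to 0.39 with scaling to the array median, -0.20 to 0.11 with quantile normalization and -0.35 to 0.46 with normexp.

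Leaving out 1 array in turn, the genes called against 0 h ranged in CD4 cells from 16 to 22 at 4 h, 18 to 23 at 12 h, 18 to 23 at 24 h and 16 to 25 at 72 h, and in CD8 cells from 14 to 18, 16 to 19, 13 to 23 and 14 to 19. The ranges were 0 to 5 (CD4) and 0 to 1 (CD8) for 72 h against 24 h, 0 to 0, 0 to 4, 0 to 3 and 0 to 4 for the difference of the responses at 4, 12, 24 and 72 h, and 7 to 8 for CD8 against CD4 at 0 h. For age at 0 h they were 0 to 1 in both cell types, for age after stimulation 0 to 0 in both, and for the change of the age difference 0 to 1 (CD4) and 0 to 0 (CD8).

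For CD4 72 h against 24 h, main count 3, the count was 0 with own-series 0 h arrays, array weights, median scaling and slide as a random block, 1 with same-slide averaging, no filter and separate fits, 6 with the filter at 14 arrays and 8 with a scan series term. For CD8 72 h against 24 h it was 12 with the matrix times and 12 with normexp. For the response difference it was 5 at 4 h and 8 at 12 h with the matrix times, and 1 at 12 h with a scan series term. At 24 h (main 1) it was 18 with the matrix times, 6 with array weights, 3 with quantile normalization, 3 with the filter at 14 arrays, and 0 with own-series arrays, same-slide averaging, the mean of all probes, normexp, median scaling and slide as a random block. At 72 h (main 2) it was 1 with the mean of all probes, no filter and outlier spots kept, and 0 with own-series arrays, array weights, same-slide averaging, median scaling and slide as a random block. For CD8 against CD4 at 0 h (main 7) it was 23 in 1 scan session, 2 with median scaling, 1 with slide as a random block and 0 with same-slide averaging.

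For age at 0 h in CD4 cells (main 0) it was 8 with slide as a fixed or a random block, 1 in a fit of 28 arrays and 1 with the filter at 14 arrays, and in CD8 cells 2 with a fixed and 3 with a random slide block and 1 with normexp. For the change of the age difference it was 1 (CD4) and 3 (CD8) with array weights. With replicate number as a block shared by CD4 and CD8 arrays, 0 genes were called for age in either cell type at 0 h, and 7 between the cell types (1 higher, 6 lower), so this shared block changed no call. It could not properly take out a slide effect, since the numbers follow the slides of the CD4 arrays but not those of the CD8 arrays. With the mean of all probes Acly stood in CD4 cells at -0.0695 at 12 h, -0.0698 at 24 h and -0.39 at 72 h and Hmgcs1 at -0.32 at 72 h. Leaving out single arrays, the CD4 change at 12 h ranged from -0.2166 (without young 12 h) to 2.8516 (without old 12 h) for Cyp51 and from -0.0299 to 2.406 for Hmgcs1. With the matrix times, CD8 values at 24 h were -1.39 for Dhcr7, -0.78 for Elovl6, -0.021 for Mvd, -0.36 for Mvk, -1.57 for Scd1, -0.95 for Scd2 and -1.17 for Tm7sf2, and at 4 h 0.54 for Dhcr7, 2.27 for Scd2 and 0.33 for Tm7sf2. Signal over background limits Scd1 and Abca1, which were near background at several times.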
